A study of Mus musculus with 4 samples.

Results

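The Sox genes encode transcription factors that share a DNA-binding HMG box. The genes described here were chosen by symbol and are Sox1, Sox2, Sox3, Sox4, Sox5, Sox11, Sox12, Sox13, Sox15 and Sox21. Of these 10, 9 matched a row among the 48526 genes of the count data; Sox1 had no matching identifier and was not analysed here. Another 11 names, the remaining Sox genes, Sry and the long noncoding RNA gene Sox2ot, served as the rest of the family, and 10 of them had a row. RNA-seq was done on 4 samples of mouse embryonic stem cells (ESCs). The groups, with 2 replicates each, were labelled as wild-type (WT) ESCs and clone 2 of Zfp296 knockout ESCs (KO2). The paper describes both as R1 ESCs, and R1 is a male ESC line. The knockout was made with CRISPR/Cas9 and a guide to exon 1. RNA was isolated in duplicate, and whether from separate cultures was not stated. Both groups were grown on gelatine in serum with LIF and the inhibitors PD0325901 and CHIR99021. KO2 is 1 clone, so that an effect of the knockout and a property of the clone cannot be told apart, and p-values measure only the spread between replicates of these cells.

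SOX proteins bind a short DNA motif in the minor groove and bend the DNA, and they usually act with a partner factor. The family is divided into subgroups by the HMG box. SOX2, of the SoxB1 subgroup with SOX1 and SOX3, pairs with OCT4 (encoded by Pou5f1) on composite elements and is required for ESC self-renewal. SOX1 and SOX3 are best known from neural progenitors, the SoxC genes Sox4, Sox11 and Sox12 from many progenitor cells, and the SoxD genes Sox5, Sox6 and Sox13 from cartilage, neural and lymphoid cells.

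A stretch at the start of the HMG box, which encodes the same 10 residues in every member with a row, is shown because over this stretch the members differ only in bases that leave the protein unchanged. Capitals mark bases that differ from Sox2.
Sox2: aagaggcccatgaacgccttcatggtatgg
Sox3: aagCgAcccatgaacgcGttcatggtGtgg
Sox21: aagCggcccatgaacgccttcatggtGtgg
Sox15: aagCggcccatgaacgccttcatggtGtgg
Sox4: aagCggcccatgaacgccttTatggtGtgg
Sox11: aaACggcccatgaacgccttcatggtGtgg
Sox12: aagCggccGatgaacgcGttcatggtGtgg
Sox13: aagagAcccatgaaTgccttcatggtGtgg
Sox5: aagCgTccAatgaaTgccttcatggtGtgg

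Sox2 lies within the span of Sox2ot (chr3:34003360-34581541), on the same strand, but their exons do not overlap. The Sox2 stretch lies at chr3:34549467-34549496 on the plus strand of NCBIM37 (mm9), in the coding part of the single exon of Sox2 (chr3:34548927-34551383). The Sox3 stretch lies at chrX:58146144-58146173 on the minus strand, also in a single exon. The 8 other members differed from Sox2 at 2 to 5 of the 30 bases, with Sox5 the most distant at 83.3% identity, and Sox15 and Sox21 had the same 30 bases. The longest run shared with Sox2 anywhere in the exons was found in Sox21, with 38 bases, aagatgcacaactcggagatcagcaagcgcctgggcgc (chr3:34549536-34549573 in Sox2), followed by Sox3 with 32 bases, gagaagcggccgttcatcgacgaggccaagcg (chr3:34549599-34549630 in Sox2). Both runs are coding in both genes. Reads that fit more than one place in the genome are not counted by HTSeq.

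Reads on genes numbered 2829914 and 4334499 in WT replicates 1 and 2, and 7470907 and 7437294 in KO2 replicates 1 and 2, so that depth moved with the group. Counts are given as CPM (counts scaled to a common library size) after TMM normalization, and 3 counts corresponded to 1.118, 0.709, 0.380 and 0.401 CPM. KO2 was compared to WT with edgeR's quasi-likelihood test over 12883 genes with sufficient counts, and p-values were adjusted over all of them (threshold 0.05). The RNA of the targeted gene was higher, not lower, in the libraries labelled knockout. Zfp296 had 31 and 31 counts in the WT libraries and 416 and 282 in the KO2 libraries, and the level rose from 9.44 ± 2.99 to 45.2 ± 10.7 CPM (SD, n = 2; edgeR log2 fold change 2.31, SE 0.28, adjusted p = 4.545e-05); the call was lost without a filter on low counts (edgeR adjusted p = 0.057). The count spans the whole gene, so it measures neither the edited site itself nor the protein. The 14 Y-linked genes had 0 and 1 counts in the libraries labelled WT and 4782 and 5199 in those labelled KO2. Libraries labelled WT thus held almost no Y-linked reads, although R1 is a male line. A difference between the groups in Y-linked content or in cell line cannot be told apart from the knockout or the clone. All directions given here rest on the labels of the libraries, and the part of these differences in the results was not tested.

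Sox2 was the only member called, and it was lower in the libraries labelled KO2. It had 2342 and 3411 counts in the WT libraries and 3807 and 3658 in the KO2 libraries, or 872.8 and 806.0 against 482.8 and 489.0 CPM. Both KO2 libraries lay below both WT libraries, and the gap was far larger than the spread within either group. Means were 839.4 ± 47.2 CPM for WT and 485.9 ± 4.39 CPM for KO2 (SD, n = 2). In edgeR this was a log2 fold change of -0.79 (SE 0.10, 95% confidence interval -1.001 to -0.58, adjusted p = 7.836e-05), or 42.1% lower (32.9 to 50.03%). Among all tested genes, 5.64% were called, with 3.04% lower and 2.61% higher in KO2. When libraries were scaled by the ERCC spike-ins instead, which made up 0.0695 to 0.0940% of gene counts, the value was -0.69 (SE 0.38) and the call was lost (edgeR adjusted p = 0.6204). In RNA from whole cultures, fewer cells with Sox2 and less Sox2 RNA per cell cannot be told apart.

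**Figure D1:**
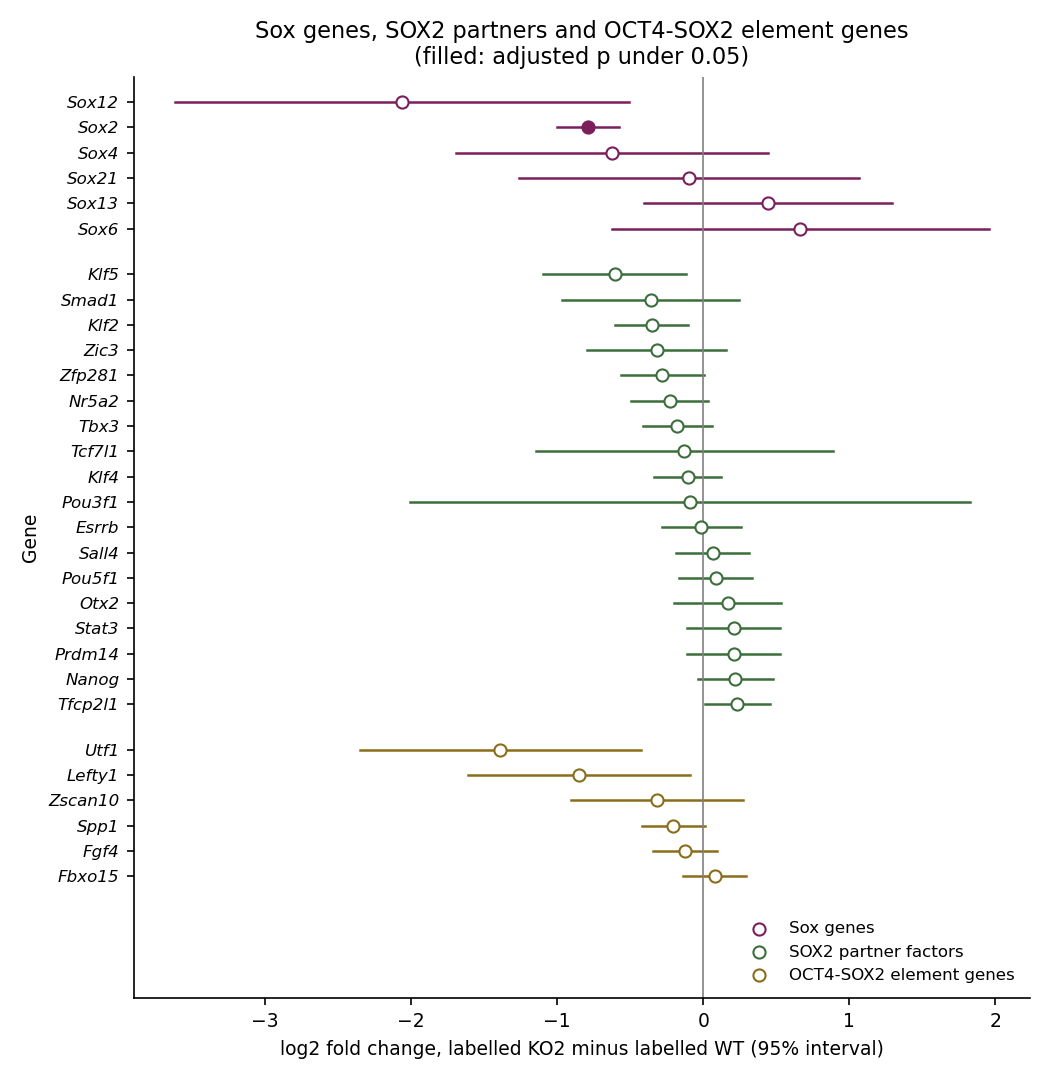
Log2 fold change of KO2 against WT (x axis) for the tested Sox genes and the genes of the fixed lists of SOX2 partners and OCT4-SOX2 element genes (y axis), with 95% confidence intervals from edgeR. Sox2, at -0.79, is the only gene plotted from these lists whose adjusted p is under 0.05.

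The SoxB1 paralogue Sox3, an X-linked gene of neural progenitors, was close to silent. It had 2 and 3 counts in the WT libraries and 1 and 4 in the KO2 libraries. Summed over each group, this was 0.72 CPM in WT (exact Poisson 95% interval 0.23 to 1.69) and 0.33 CPM in KO2 (0.11 to 0.76), so that the intervals overlapped and no difference was detectable at this depth. Of the counts on Sox2 and Sox3, Sox2 took 99.91 and 99.91% in WT and 99.97 and 99.89% in KO2, which overlapped (exact permutation p = 1, two-sided). Per kilobase of exon, Sox3 was at 0.36 and 0.34 CPM in the WT libraries and 0.06 and 0.26 in the KO2 libraries, where Sox2 was at 196.5 or more in all 4. Intervals cover counting error only.

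**Figure D2:**
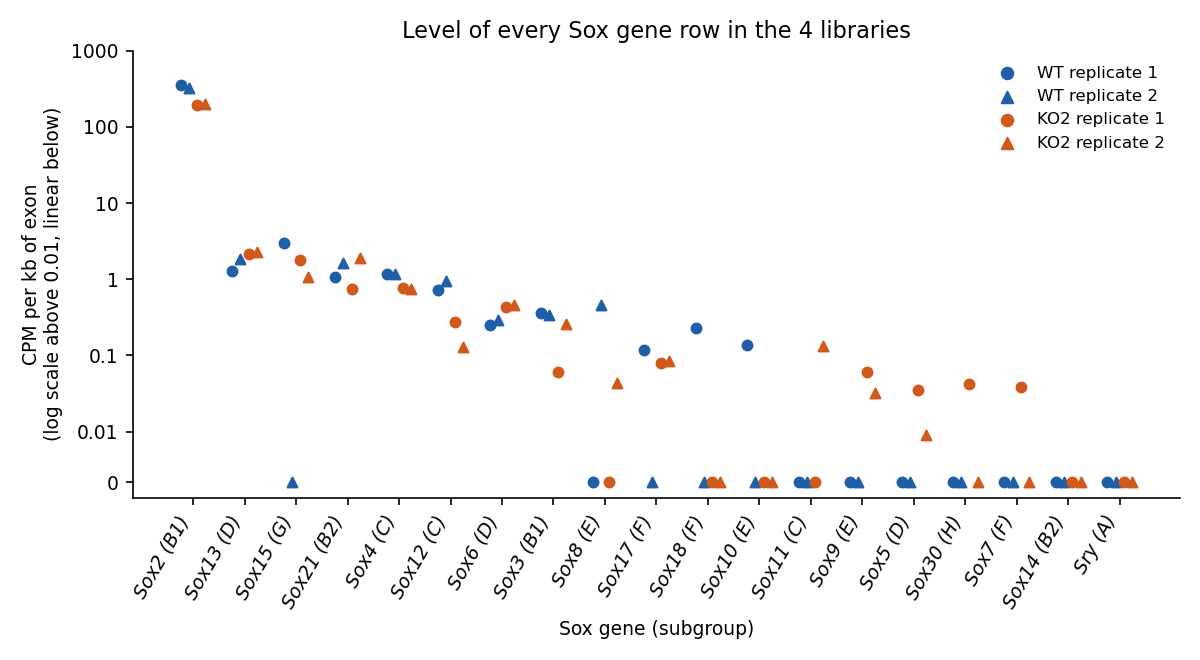
Level of each Sox gene in each of the 4 libraries, in CPM per kilobase of exon (y axis, log scale above 0.01 and linear below); genes are ordered by mean level, with the subgroup in brackets, and each point is 1 library. Sox2 stands far above all others, from 196.5 to 355.2, and the remaining genes lie at or below 3.03.

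Sox21, the SoxB2 gene, encodes a factor that counteracts SoxB1 proteins at shared target genes. It had 11 and 26 counts in the WT libraries and 22 and 54 in the KO2 libraries, or 5.12 ± 1.45 against 5.00 ± 3.13 CPM (SD, n = 2). The groups overlapped, and the edgeR log2 fold change was -0.10 (SE 0.56, 95% confidence interval -1.26 to 1.07, adjusted p = 0.948), an interval that leaves room for a change of more than 2-fold either way. The sign turned when WT replicate 2 (0.28) or KO2 replicate 1 (0.44) was left out. An antisense gene, Gm4675, overlaps 18.8% of the Sox21 exon, and the strand setting of the counting was not given in the sources used here, so this value is uncertain.

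Of the SoxC genes, Sox11 was at or below 3 counts in all 4 libraries, with 0 and 0 in WT and 0 and 2 in KO2. Sox4 had 15 and 24 counts in the WT libraries and 29 and 27 in the KO2 libraries, or 5.63 ± 0.06 against 3.64 ± 0.05 CPM (SD, n = 2). Both KO2 libraries were lower, but the edgeR log2 fold change of -0.63 (SE 0.51) did not pass the test (adjusted p = 0.553). The antisense gene Gm17419 overlaps 54.6% of the Sox4 exon but has no row of its own, and the Sox4 value is uncertain too. Sox12 had 8 and 17 counts in the WT libraries and 9 and 4 in the KO2 libraries, or 3.50 ± 0.73 against 0.84 ± 0.43 CPM. With a log2 fold change of -2.06 (SE 0.74, 95% confidence interval -3.62 to -0.50), Sox12 had the largest estimate among the 6 tested Sox genes, but with counts this low it did not pass the test either (edgeR adjusted p = 0.1228, unadjusted 0.01224). Sox12 ranged from -2.69 to -1.64 over 10 alternative settings, and was called in 0 of them.

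The SoxD genes Sox13 and Sox6 had values above 0, and neither passed the test. Sox13, whose subgroup lacks a transactivation domain, had 15 and 34 counts in the WT libraries and 74 and 73 in the KO2 libraries, or 6.81 ± 1.73 against 9.57 ± 0.26 CPM (SD, n = 2), with both KO2 libraries higher (edgeR log2 fold change 0.44, SE 0.41, adjusted p = 0.6125). Sox6 had 6 and 11 counts in the WT libraries and 30 and 30 in the KO2 libraries, or 2.42 ± 0.26 against 3.91 ± 0.15 CPM (log2 fold change 0.66, SE 0.62, edgeR adjusted p = 0.6175). Sox5 had 0 and 0 counts in the WT libraries and 4 and 1 in the KO2 libraries. Sox15, the single SoxG gene, which is known to bind OCT-SOX elements, had 7 and 0 counts in the WT libraries and 12 and 7 in the KO2 libraries. Summed over each group this was 1.01 CPM in WT (exact Poisson 95% interval 0.41 to 2.09) and 1.24 CPM in KO2 (0.74 to 1.93), which did not separate the groups.

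Of the 9 members with a row, 5 had sufficient counts to be tested, 1 was called and 4 were not. Of the 5 tested, 3 (Sox2, Sox4 and Sox12) had both KO2 libraries below both WT libraries and 1 (Sox13) had both above. The share of all tested genes with libraries that did not overlap was 48.8%, with 23.4% lower and 25.4% higher. The median log2 fold change of the tested members was -0.63, beside 0.01 over all tested genes. With 5 values, this median is the Sox4 estimate, which was not called. With Sox6 included it was -0.36.

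With a floor of 3 counts in every library, Sox11 alone was silent among the members. Sox3 and Sox5 exceeded it by 1 count, in KO2 replicates 2 and 1 respectively. The floor is in raw counts, and the KO2 libraries were deeper. Sox3 passed it at 0.53 CPM in KO2 replicate 2 but not at 0.75 and 0.71 CPM in WT. With a floor of 10 counts, the silent members were Sox3, Sox5 and Sox11. Among the rest of the family, 8 of the 10 genes with a row were at the floor in all 4 libraries. These were the endodermal and endothelial SoxF genes Sox7, Sox17 and Sox18, the SoxE genes Sox9 and Sox10 of cartilage and neural crest, Sox14, Sox30 and the testis-determining gene Sry. Sox14 and Sry had 0 counts in all 4 libraries. Sox8 reached 6 counts in WT replicate 2 and 1 in KO2 replicate 2.

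Within the family, Sox2 made up nearly all of the counts. Its share of the counts of all Sox genes was 97.2 and 96.6% in WT and 95.3 and 94.7% in KO2 (Wilson 95% intervals from 96.5 to 97.8% and 95.9 to 97.1% in WT, and 94.6 to 95.9% and 93.9 to 95.3% in KO2). The groups did not overlap; the exact permutation test gave p = 0.3333 (two-sided), the smallest p that 2 against 2 libraries allow. By level per kilobase, Sox2 was followed by Sox13, Sox15, Sox21, Sox4 and Sox12, which overlapped one after the other. The gap between Sox2 and Sox13 was 216.2-fold in WT and 89.0-fold in KO2. Among the 12067 tested genes with an exon length in the annotation, Sox2 stood at rank 93 by level per kilobase in WT and at rank 220 in KO2.

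**Figure D3:**
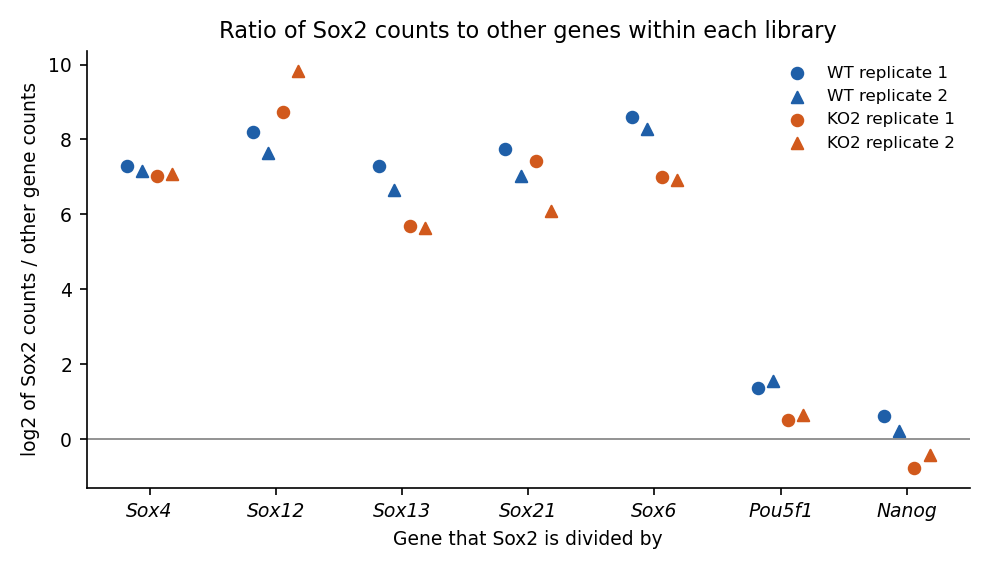
Log2 of the ratio of Sox2 counts to those of another gene within each library (y axis), for 5 Sox genes, Pou5f1 and Nanog; each point is 1 library. The ratios to Pou5f1, Nanog, Sox4, Sox6 and Sox13 are lower in both KO2 libraries, while that to Sox12 is higher.

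A ratio within a library does not depend on scaling between libraries, and it was used to ask whether Sox2 moved apart from other genes. The ratio of Sox2 to Pou5f1 was 2.58 and 2.95 in WT and 1.43 and 1.58 in KO2, a difference of -0.88 on the log2 scale. The ratio to Nanog did not overlap either, 1.53 and 1.16 in WT against 0.59 and 0.75 in KO2 (log2 difference -1.01). For Sox13 the ratios were 156.1 and 100.3 against 51.4 and 50.1 (-1.30), whereas for Sox4 they were 156.1 and 142.1 against 131.3 and 135.5 (-0.16). The largest difference was that of Sox6, with 390.3 and 310.1 against 126.9 and 121.9 (-1.48). Sox12 went the other way, with 292.8 and 200.6 in WT and 423.0 and 914.5 in KO2 (1.36). Of 7 genes compared, 6 had libraries that did not overlap (exact permutation p = 0.3333 each, adjusted 0.3889, two-sided), and Sox21 did overlap. Since the Sox2 levels did not overlap, its ratio to a gene with little change mostly will not either. The share of such ratios over all genes was not computed. The ratios to Sox6 and Sox12 rest on 6 to 30 and 4 to 17 counts of those genes, neither of which was called.

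Other factors of the ESC network that work with SOX2 were measured with a list of 18 partner genes, all of which were tested and 0 of which were called. Without passing the test, 11 had values below 0 and 7 above, with a median log2 fold change of -0.10. An unadjusted p under 0.05 (edgeR) was found for 3 partners, beside 2501 of all 12883 tested genes. These 3 were Klf2 (log2 fold change -0.35, edgeR adjusted p = 0.09509), Klf5 (-0.61, adjusted p = 0.1545) and Tfcp2l1, which was above 0. The 2 most abundant partners were Tfcp2l1, at 888.7 ± 77.8 CPM in WT and 1045 ± 103 in KO2 (log2 fold change 0.23, edgeR adjusted p = 0.2368), and Nanog, at 631.9 ± 89.4 and 736.7 ± 120.8 CPM (0.22, adjusted p = 0.3443). Pou5f1 had 305.7 ± 45.7 CPM in WT and 323.9 ± 19.5 in KO2 (SD, n = 2, log2 fold change 0.09, edgeR adjusted p = 0.7619). Reads from Pou5f1 that also fit its pseudogenes may be lost. Of 8 genes known to carry OCT4-SOX2 elements, 8 were tested and 0 were called, with a median of -0.17 and 2 at an unadjusted p under 0.05 (edgeR). The most abundant were Spp1, at 670.5 ± 27.9 CPM in WT and 582.0 ± 36.1 in KO2 (-0.20, adjusted p = 0.2883), and again Nanog. The 2 with an unadjusted p under 0.05 were Utf1 and Lefty1. Of the 8 genes, 4, these 2 included, had both KO2 libraries below both WT libraries, and 1 had both above. Over all tested genes, 23.4% were lower and 25.4% higher in this way. Utf1 had 21 and 47 counts in the WT libraries and 34 and 23 in the KO2 libraries (log2 fold change -1.39, SE 0.46, edgeR adjusted p = 0.08744). For Lefty1, with 35 and 57 counts in WT against 53 and 60 in KO2, the value was -0.85 (SE 0.36, edgeR adjusted p = 0.1972). DESeq2 called 0 genes of either list as well.

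Markers of ESCs were present in both groups. Of 11 markers, all were detected and 0 were called. An unadjusted p under 0.05 (edgeR) was found for 3, namely Dppa5a, Utf1 and Tfcp2l1, beside 2501 of all 12883 tested genes. The summed level of the 11 markers was 6598 and 6517 CPM in WT and 7056 and 6728 CPM in KO2. The most abundant were Zfp42, at 1746 ± 96 CPM in WT and 1575 ± 141 in KO2, and Dppa5a, at 935.8 ± 50.6 and 1190 ± 153 CPM (log2 fold change 0.35, edgeR adjusted p = 0.06688). Dppa5a was called, as higher in KO2, with DESeq2 (adjusted p = 0.027), with at least 10 counts in every library (edgeR adjusted p = 0.04856) and without KO2 replicate 2 (edgeR adjusted p = 0.004383). Listed markers of trophectoderm had a summed level of 3.73 and 5.198 CPM in WT and 21.6 and 20.7 CPM in KO2. Most of this came from 2 keratin genes, Krt8 and Krt18. Of 5 listed, 2 were tested and 1 rose, the keratin gene Krt8, from 4 and 12 counts to 108 and 102 (log2 fold change 2.56, edgeR adjusted p = 0.003731). The other, Krt18, had 6 and 10 counts in the WT libraries and 50 and 28 in the KO2 libraries (1.12, edgeR adjusted p = 0.3408). The defining gene Cdx2 had 0 and 0 counts in the WT libraries and 2 and 8 in the KO2 libraries. Elf5 and Krt7 also had 0 and 0 counts in WT, with 9 and 5 (Elf5) and 1 and 12 (Krt7) in KO2. Cdx2, Elf5 and Krt7 had too few counts to be tested. Neural markers summed to 97.6 and 86.7 CPM in WT and 115.1 and 121.2 CPM in KO2, with 1 gene tested and 0 called (edgeR). Nearly all of this was Nes, an intermediate filament gene, at 92.1 ± 7.89 CPM in WT and 116.9 ± 4.82 in KO2 (SD, n = 2; log2 fold change 0.35, edgeR adjusted p = 0.1581). Hes5 and Olig2 had 0 counts in every library, and Pax6 had 0 and 1 counts in the WT libraries and 13 and 6 in the KO2 libraries. Their part in the Sox2 result was not tested.

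**Figure D4:**
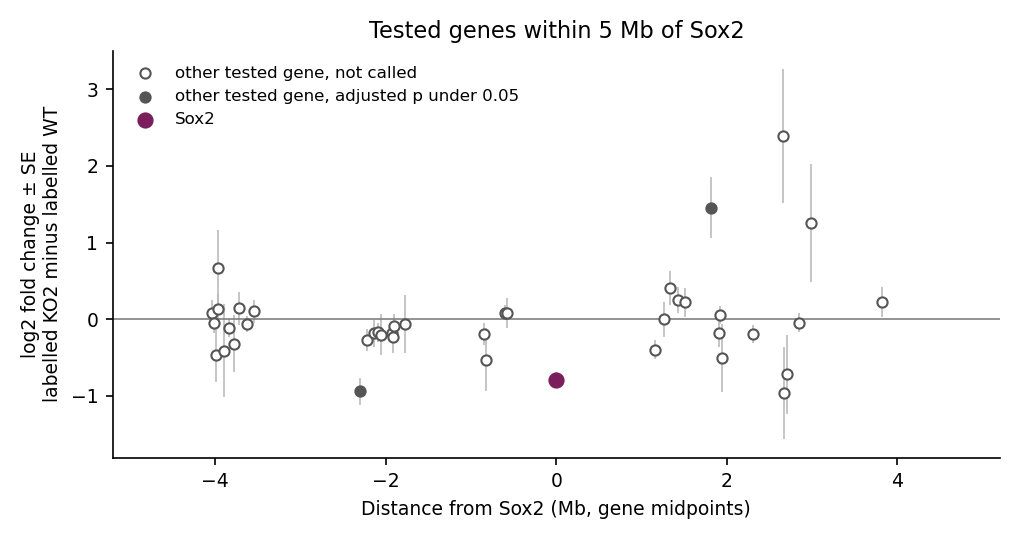
Log2 fold change of KO2 against WT (y axis) of tested genes by the distance of their midpoints from that of Sox2 in Mb (x axis), with standard errors; filled points have an adjusted p under 0.05. Most of the 40 genes within 5 Mb lie near 0, with a median of -0.08, and Sox2 lies at -0.79.

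Since KO2 is 1 clone, the genes around Sox2 on chromosome 3 were examined for a change shared along the chromosome. The 40 tested genes within 5 Mb of Sox2 had a median log2 fold change of -0.08, beside -0.05 for all 553 tested genes of the chromosome other than Sox2, these 40 included, and 0.01 over all tested genes. The 2 genes called were Zmat3 (-0.94, edgeR adjusted p = 0.00301) and Anxa5 (1.46, adjusted p = 0.03956), which moved in opposite directions. The nearest tested genes, Dnajc19 and Fxr1, at -582.6 and -606.5 kb, had log2 fold changes of 0.07 and 0.08. On the other side the nearest was Atp11b, at 1154 kb, with -0.40 (SE 0.13, edgeR adjusted p = 0.07851).

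The 5 genes whose profiles across the 4 libraries were closest to that of Sox2 among 4085 genes of at least 50 CPM were Atp1b1, Fam60a, Klhl24, Ado and Ralgapa1, with Euclidean distances of 0.0412 to 0.0866 on the log2 scale. Their log2 fold changes were -0.80, -0.76, -0.78, -0.82 and -0.72, and edgeR called all 5. With ERCC scaling 0 of the 5 were called, and without a filter on low counts 1 was (Fam60a); Ralgapa1 also lost its call without WT replicate 1 (edgeR adjusted p = 0.07404) or KO2 replicate 1 (0.05396). The 5 genes were chosen by their likeness to Sox2 in these libraries, so similar fold changes and calls follow from the choice. With 4 libraries, this likeness is a description of the contrast.

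The CpG content of the promoters overlapped between silent and expressed members. In the 250 bases before the RefSeq start (GRCm38.p6), which were found for 9 members including Sox1 but not Sox3, Sox2 had 27 CpG, more than 91.4% of 32851 windows of mouse genes, whose median was 6. Sox12 and Sox13, at a few CPM, had 35 and 31, and the silent Sox11 had 17, but Sox15 and Sox5 had 5 and 3. The annotated Sox5 gene has 25 exon blocks, and any start other than that of its window was not measured. The Sox2 window held 1 match to the SOX core (ACAAAG or ACAATG on either strand), which 25.2% of all windows held.

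**Figure D5:**
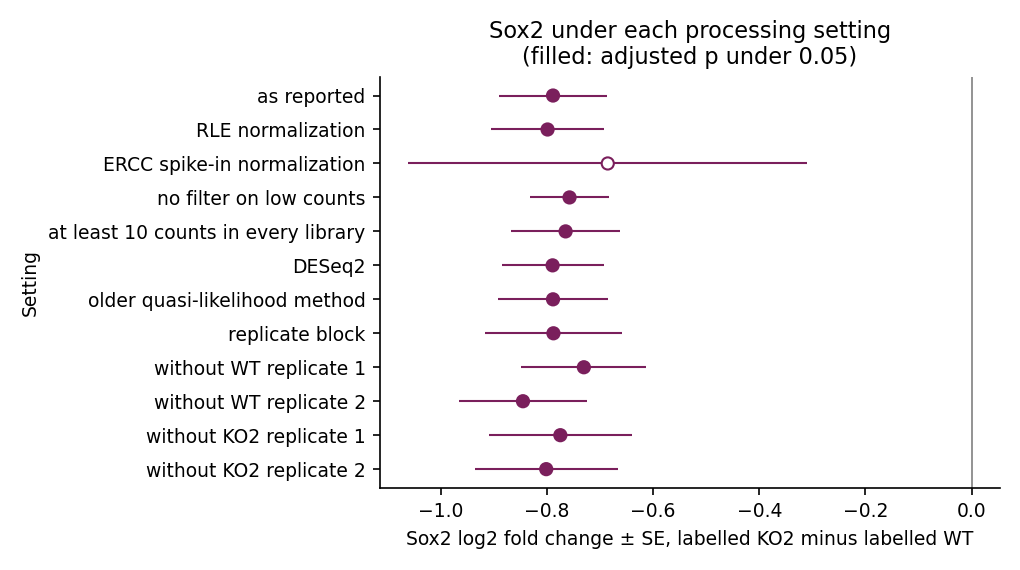
Log2 fold change of Sox2, KO2 against WT, under the main setting and each of 11 alternatives (y axis), with standard errors (x axis in log2 units). All values lie between -0.85 and -0.69, and the interval is widest with ERCC scaling, where the call is lost.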

How the data were processed

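RNA was isolated in duplicate from WT R1 ESCs and KO2 ESCs. Per the methods, Ribo-Zero removed ribosomal RNA and the libraries kept strand; hisat2 placed the reads on mm9 and HTSeq gave counts for each gene. The authors deposited raw counts for each replicate, without normalization. Versions, annotation and strand option were not given in the sources used here. HTSeq's summary rows and the ERCC rows were left out of the library sizes; genes held 41.2 to 47.1% of the total.

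Symbols and exon lengths came from GENCODE M1 (NCBIM37). Counts were normalized with TMM, filtered with filterByExpr (minimum 10, total 15) and tested with glmQLFit and glmQLFTest of edgeR 4.0.16 (R 4.3.3), with group as the only term and Benjamini-Hochberg adjustment. Ratios and shares were compared with exact permutation tests (scipy 1.17.1). The named genes were all Sox genes, Zfp296, the called and 2 most abundant genes of the partner, OCT4-SOX2 element and ESC marker lists, and the 5 genes most like Sox2; other genes, including those of the other marker lists, were chosen after their values were seen. The members and lists were chosen with earlier results of these data known. Alternatives were RLE and ERCC scaling, other filters, DESeq2 1.42.0, the older quasi-likelihood method, a replicate block, and each replicate left out.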

Additional observations from a re-analysis of the deposited data

How the results depend on the processing

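Sox2 kept its direction in 11 of 11 alternatives (-0.85 to -0.69) and was called in 10; with ERCC scaling 0 members were called. Over all genes, 727 were called (391 lower, 336 higher), but 163 with ERCC scaling (73 lower, 90 higher), 61 without a filter (32 lower, 29 higher) and 456 with DESeq2 (192 higher). Without a filter the median of all genes moved to 0.12. Leaving out 1 replicate gave 270 to 691 calls (148 to 350 lower, 122 to 341 higher), with the fewest without WT replicate 1; Sox2 stayed between -0.85 and -0.73, with edgeR adjusted p from 3.89e-07 to 0.0126. Sox21 ranged from -0.93 to 0.44 and changed sign without WT replicate 2 (0.28) and without KO2 replicate 1 (0.44). With a floor of 10 counts, 3 members were silent instead of 1. Within 2 Mb, the median of the genes around Sox4 was 0.33 and around Sox21 0.38. Zfp296 was not called without a filter (edgeR adjusted p = 0.057). The causes were not tested.

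The replicate numbers were shared between the groups, and the deviations of same-numbered libraries correlated at -0.0095. With 2 libraries per group this is a single value. It cannot show whether same-numbered libraries shared a batch, which was not tested. With the replicate block, 950 genes were called (474 lower, 476 higher) and Sox2 was at -0.79 (edgeR adjusted p = 1.387e-07). The depth limits the low members: 3 counts were 1.118 CPM in WT replicate 1.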

Other observations

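Markers of other lineages were low in both groups. Primitive endoderm markers summed to 10.4 and 3.07 CPM in WT and 7.99 and 7.35 CPM in KO2, mesoderm markers to 16.0 and 28.6 CPM in WT and 14.3 and 22.9 CPM in KO2, and fibroblast markers to 1.12 and 3.54 CPM in WT and 1.01 and 0.94 CPM in KO2. Of these lists, 3 primitive endoderm, 3 mesoderm and 0 fibroblast genes had sufficient counts to be tested, and 0 of the 6 tested were called with edgeR.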
